A study of Mus musculus with 2 samples.

Results

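The granins are acidic secretory proteins that fill the dense-core granules of endocrine cells and neurons, and 7 genes of the family (Chga, Chgb, Scg2, Scg3, Scg5, Vgf and Pcsk1n) were followed in long-read RNA sequencing of the neonatal mouse adrenal gland. They were taken by gene name from the transcript models of each library, and all 7 had reads, among 18053 known mouse genes with at least 1 read. The tissue was the adrenal gland of male B6CASTF1/J mice, a hybrid of the B6 and CAST strains, at 4 days of age, and the only group held 2 libraries, biological replicates 1 and 2 with 1 technical replicate each. The labels give no treatment. Whether the libraries came from different animals is not settled by them: replicate 1 is tied to male 03 throughout, replicate 2 to male 04 as a tissue but to male 03 as a library, and a single donor is listed. Differences between the libraries therefore measure only the spread between these samples, which may be technical.

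Chromogranins A and B (Chga, Chgb) and secretogranin II (Scg2) are the bulk matrix proteins of the chromaffin granule, where they are packed with catecholamines, ATP and calcium and are cut into shorter peptides such as catestatin and secretoneurin. Secretogranin III (Scg3) binds Chga to the granule membrane. Scg5 encodes 7B2, the chaperone and inhibitor of the prohormone convertase PC2, and Pcsk1n encodes proSAAS, an inhibitor of the convertase PC1/3. Vgf encodes a peptide precursor named for its induction by nerve growth factor. In the adrenal gland the chromaffin cells of the medulla are the main known source of these proteins, and the surrounding cortex makes steroids.

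Replicate 1 held 688260 mouse reads and replicate 2 held 810645, so 1 read was worth 1.45 and 1.23 CPM (counts per 1000000 mouse reads) and a gene without reads could lie as high as 4.36 and 3.70 CPM, counting error only. Markers of both adrenal compartments were present: all 10 chromaffin markers had reads (summed level 4597 CPM in replicate 1 and 3543 CPM in replicate 2), as did all 6 cortex markers (45805 and 31233 CPM). All 7 sympathetic neuron markers also had reads, at 118 and 143 CPM, and all 6 glia markers at 39.2 and 86.4 CPM. The 6 pancreatic islet markers had no read in either library, and of 6 pituitary markers Pomc alone had any, 2 reads in replicate 1 and 1 in replicate 2. The 6 liver markers together had 206 CPM (replicate 1) and 9802 CPM (replicate 2). Replicate 2 therefore stood apart in liver transcripts.

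The 3 matrix granins dominated the family. Chga had 3317 reads in replicate 1 and 2770 in replicate 2, or 4819 and 3417 CPM (mean 4118 ± 992, SD, n = 2), and ranked number 7 among all genes by mean CPM. Chgb had 2632 and 2380 reads, or 3824 and 2936 CPM (mean 3380.03 ± 628, SD, n = 2), at rank 11. Scg2 had 817 and 804 reads, or 1187 and 992 CPM (mean 1089 ± 138, SD, n = 2), at rank 71. Within each library Chga was above Chgb, by 1.26 times in replicate 1 and 1.16 times in replicate 2, although Chga in replicate 2 lay below Chgb in replicate 1. Scg2 was below both in each library. Together Chga, Chgb and Scg2 made up 95.8% of the granin reads in replicate 1 and 94.2% in replicate 2.

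The convertase partners followed at lower levels. Pcsk1n had 191 and 255 reads, or 278 and 315 CPM (mean 296 ± 26.2, SD, n = 2). Scg5 had 66 and 92 reads, or 95.9 and 113 CPM (mean 105 ± 12.4, SD, n = 2). These were the members with more CPM in replicate 2, and Pcsk1n lay above Scg5 in both libraries without overlap. Vgf had 26 and 14 reads, or 37.8 and 17.3 CPM (mean 27.5 ± 14.5, SD, n = 2). Scg3 had 11 and 8 reads, or 16.0 and 9.87 CPM (mean 12.9 ± 4.32, SD, n = 2). Vgf was above Scg3 in each library, and the ranges did not overlap, but the lowest Vgf value, 17.3 CPM, was close to the highest of Scg3, 16.0 CPM.

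Summed over the family, granins reached 10258 CPM in replicate 1 and 7800 CPM in replicate 2 (mean 9029 ± 1738, SD, n = 2). Per kilobase of the leading annotated transcript the order of the 7 genes was the same: Chga had a mean of 2187 CPM per kb, Chgb 1234, Scg2 470.2, Pcsk1n 135, Scg5 86.7, Vgf 10.8 and Scg3 6.01. The family thus spanned more than 2 orders of magnitude on either scale.

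**Figure D1:**
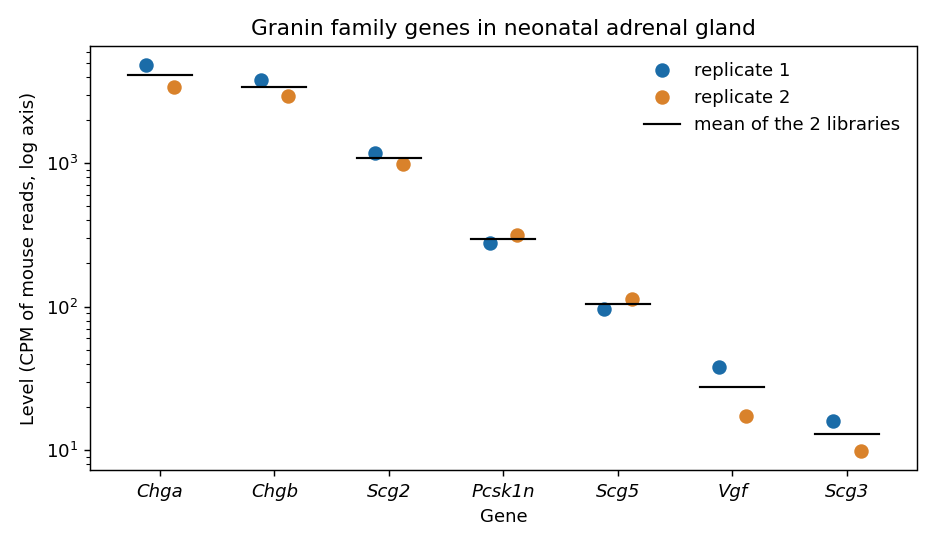
Level of each granin gene on a log axis in CPM, with 1 point per library (replicate 1 left, replicate 2 right) and a line at their mean. Chga and Chgb lie between 2936 and 4819 CPM, and Vgf and Scg3 lie at or below 37.8 CPM.

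Genes of the same cells gave a scale for these levels. The catecholamine list (13 genes of synthesis, storage and breakdown) had a summed level of 5030.1 CPM (replicate 1) and 3910.5 CPM (replicate 2), and granin reads outnumbered its reads by 2.04 and 1.99 times. Its 4 highest genes by mean CPM were Th (tyrosine hydroxylase, the rate-limiting enzyme) at 2026 ± 524 CPM, Pnmt (which turns noradrenaline into adrenaline) at 989 ± 57.6, Cyb561 (the granule's electron carrier) at 492 ± 81.3 and Dbh (dopamine beta-hydroxylase) at 349.6 ± 68.7 (SD, n = 2 for each). Of 19 neuropeptide and peptide-processing genes the 4 highest were Npy at 810.2 ± 39.8 CPM, Cpe (carboxypeptidase E) at 660.3 ± 112, Ctsl at 223 ± 0.692 and Cartpt at 89.7 ± 4.69 (SD, n = 2 for each). Of 18 exocytosis genes the 3 highest were Vamp2 at 99.2 ± 7.68 CPM, Rab3a at 63.3 ± 1.18 and Snap25 at 35.1 ± 7.83 (SD, n = 2 for each).

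On the CPM scale Chga and Chgb were above every gene of these 3 lists, and Th was the next below them. By mean CPM Scg2 lay between Th and Pnmt, as it did in each library. The other places hold for the mean alone. Pcsk1n lay between Dbh and Ctsl by mean but above Dbh in replicate 2 (315 CPM for Pcsk1n and 301 for Dbh). Scg5 was next above Vamp2 by mean but below it in replicate 1 (95.9 and 105 CPM). Vgf was next below Slc18a2 (28.8 CPM) by mean but above it in replicate 1 (37.8 and 21.8 CPM). Scg3 lay between Pcsk1 (16.0 CPM) and Cplx1 (11.7 CPM) by mean but below Cplx1 in replicate 2 (9.87 and 16.0 CPM). Per kilobase the order differed at the top: Npy, with a transcript of 566 bases, had 1431 CPM per kb, between Chga (2187) and Chgb (1234), and Pnmt with 857 CPM per kb was above Scg2 with 470.2. The convertases themselves were low: PC1/3 (Pcsk1) had 11 and 13 reads, or 16.0 CPM in each library, and PC2 (Pcsk2) had 17 and 13 reads, or 24.7 and 16.0 CPM. By mean CPM, proSAAS (Pcsk1n, 296) stood against 16.0 for Pcsk1, and 7B2 (Scg5, 105) against 20.4 for Pcsk2. Per kilobase the values were 135 against 3.18 and 86.7 against 4.31. The leading transcripts of the convertases are long, 5040 bases for Pcsk1 and 4723 for Pcsk2. Each long read was taken to stand for 1 transcript, so CPM is the main scale, and dividing by length widens these gaps.

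The libraries were set against each other by Fisher's exact test (two-sided) on the reads of each gene, and p was adjusted by Benjamini-Hochberg across the 8276 genes with 20 reads or more. The call needed both an adjusted p below 0.05 and a log2 ratio of replicate 1 over replicate 2, with 0.5 CPM added, that was 1 or more in size. This compares 2 libraries with counting error alone, not animals or conditions. Of 6 members tested 0 were called, against 3.23% of all tested genes (0.967% higher and 2.26% lower in replicate 1), and 4 members had an unadjusted p under 0.05, against 19.2%. Chga had a log2 ratio of 0.50 ± 0.037 (SE; adjusted p = 9.63e-39), Chgb of 0.38 ± 0.041 (adjusted p = 1.10e-18) and Scg2 of 0.26 ± 0.072 (adjusted p = 0.00636), all higher in replicate 1 but below the size threshold. On the adjusted p alone these 3 of 6 passed, against 7.93% of all genes, of which 4.1% were higher and 3.83% lower in replicate 1. The test passes smaller ratios in genes with more reads, and these were the members with the most reads. Counted from annotated models alone, Scg2 did not pass (adjusted p = 0.0657 in Fisher's exact test).

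The other members did not pass on either rule. Pcsk1n had a log2 ratio of -0.18 ± 0.14 (adjusted p = 0.545) and Scg5 of -0.24 ± 0.23 (adjusted p = 0.659). Vgf had the widest ratio, 1.11 ± 0.48, with an adjusted p of 0.135. Counted from annotated models alone, Vgf (22 reads in replicate 1 and 7 in replicate 2) was called, with a log2 ratio of 1.77 and an adjusted p of 0.0328. Scg3 stayed below 20 reads and was not tested. The median log2 ratio over the members tested was 0.32, beside 0.10 over all tested genes.

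Composition differed between the libraries at the same time. All 6 liver markers were called lower in replicate 1, and 5 of 6 cortex markers passed the adjusted p toward replicate 1 with none called. Of the chromaffin markers 3 of 10 passed the adjusted p, all toward replicate 1. Scaling by TMM took the median log2 ratio of all genes down by 0.10, to near 0, and on that scale Chga stood at 0.39 (adjusted p = 6.27e-24), Chgb at 0.28 (adjusted p = 8.50e-10), Scg2 at 0.15 (adjusted p = 0.221), Pcsk1n at -0.29, Scg5 at -0.35 and Vgf at 1.00. With TMM 47 of 258 called genes were higher in replicate 1, against 80 of 267 without it. In whole tissue, fewer cells of a type and less RNA per cell cannot be told apart, and the part of liver and cortex RNA in the granin ratios was not tested.

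The summed CPM of replicate 1 over replicate 2 was nearly as high for the catecholamine list (1.29) as for the granins (1.32). It was 1.10 for the neuropeptide and processing list and 0.986 for the exocytosis list. Of 12 catecholamine genes tested 0 were called and 4 passed the adjusted p, all toward replicate 1, against 7.93% of all genes. Among them were Th with a log2 ratio of 0.53 ± 0.053, Cyb561 with 0.34 ± 0.11 and Dbh with 0.40 ± 0.13. The median over that list was 0.25. Of 12 neuropeptide and processing genes tested 0 were called and Cpe alone passed the adjusted p, with 0.35 ± 0.092, and the median was -0.01. Of 8 exocytosis genes tested 0 were called and none passed the adjusted p of Fisher's exact test, nor an unadjusted p under 0.05 (0 of 8), and the median was -0.02.

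**Figure D2:**
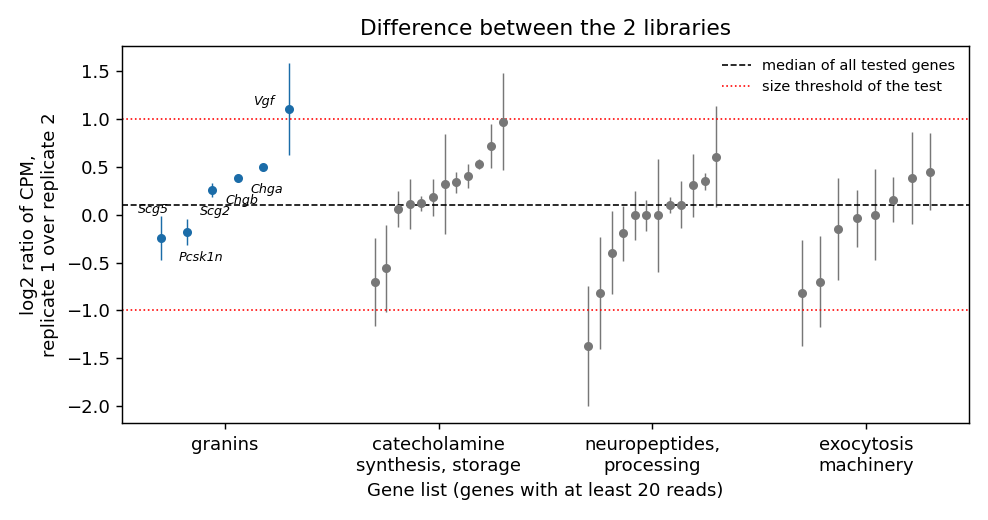
Log2 ratio of CPM, replicate 1 over replicate 2, of the genes of 4 lists with at least 20 reads (points with counting SE), with the median of all tested genes (dashed, 0.10) and the size threshold (dotted). Chga, Chgb and Scg2 lie between 0.26 and 0.50, and Vgf alone among the granins lies past 1.

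Each read belongs to a transcript model that is annotated and complete, incomplete (a stretch of an annotated splice chain), classed as a new combination or as a new splice site (new splice chains), or genomic (within the gene, without its splicing). The classes of new chains are the authors' and were not sharp: a Chga chain with a shifted site in intron 7 was classed as a new splice site in replicate 1 (8 reads) and as a new combination in replicate 2 (7 reads). Annotated complete models held 81.6% of granin reads in replicate 1 (95% Wilson interval 80.7 to 82.5) and 77.9% in replicate 2, beside 77.1% and 74.0% over all known mouse genes. Incomplete models held 12.01% and 14.33% of granin reads, beside 9.89% and 11.1%. Models classed as new combinations were rare in the granins, at 0.652% and 0.664% of reads, beside 4.85% and 4.91% over all known genes.

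Members differed in where the remaining reads lay. Chgb had the largest incomplete share among members with at least 50 reads, 23.2% in replicate 1 (21.6 to 24.9) and 24.5% in replicate 2, whereas Scg2 had 1.47% and 0.871%. Chga and Scg2 were the members with sizeable genomic shares in both libraries, 6.54% and 10.8% of Chga reads and 4.90% and 7.09% of Scg2 reads, beside 4.57% and 6.59% over all known genes. In both of these genes the annotated share was higher in replicate 1, at 83.3% in replicate 1 and 76.2% in replicate 2 for Chga and at 92.0% and 90.2% for Scg2, the direction also seen over all known genes.

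**Figure D3:**
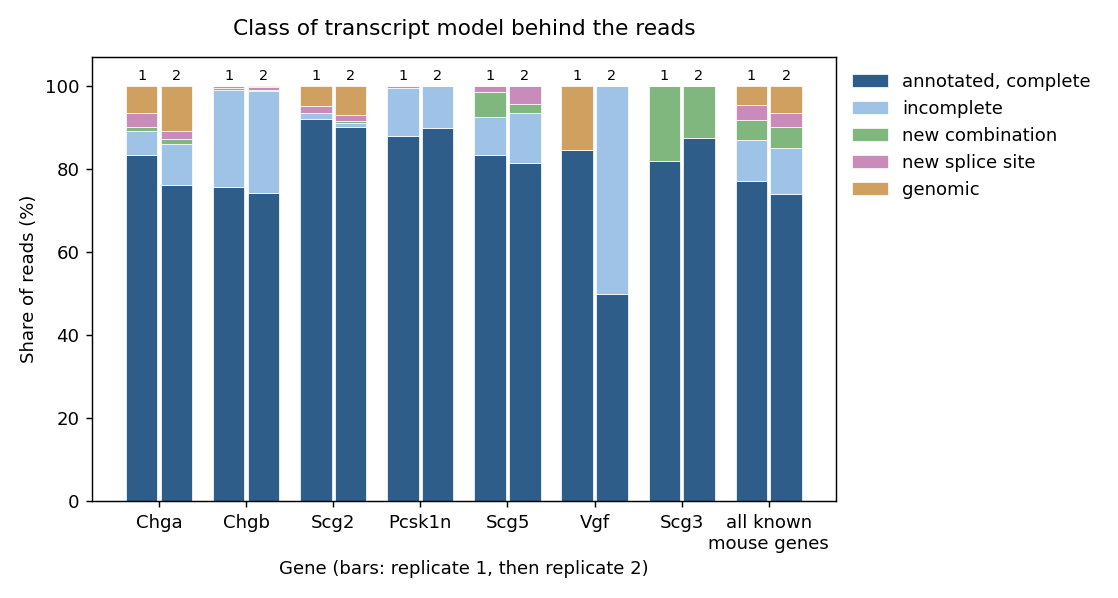
Share of reads by class of transcript model for each granin gene and for all known mouse genes, with a bar for replicate 1 and one for replicate 2. Chgb shows the broad incomplete part (23.2% and 24.5%), and the uneven Vgf and Scg3 bars rest on 26 and 14 reads and on 11 and 8 reads.

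Among members with at least 50 reads, Scg2 was the one whose reads were split evenly between annotated protein-coding transcripts. The gene lies on the minus strand of chromosome 1 (mm10, chr1:79434669-79440120). Scg2-201 has 2 exons, 2515 bases and a coding region of 617 codons, and Scg2-202 has 3 exons, 2317 bases and 577 codons. They differ by a segment of 120 bases (chr1:79435932-79436051) inside the coding exon, which Scg2-201 keeps and Scg2-202 splices out, and by 78 bases at the 5′ end. The segment holds 40 codons, begins inside codon 318 and leaves the reading frame unchanged. It is short for an intron: 6.84% of 284419 annotated mouse introns have 120 bases or fewer, and their median is 1484 bases. The peptide secretoneurin lies upstream of it. The segment is shown from the annotated Scg2-201 transcript in capitals with 30 bases on either side, because its presence is what separates the transcripts. It begins with GT and ends with AG, the usual intron borders.

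Scg2 segment: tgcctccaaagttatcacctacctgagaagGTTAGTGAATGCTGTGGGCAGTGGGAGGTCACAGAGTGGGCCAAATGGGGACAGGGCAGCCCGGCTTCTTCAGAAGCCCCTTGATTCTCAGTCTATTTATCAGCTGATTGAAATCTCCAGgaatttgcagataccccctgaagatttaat

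Scg2-202, without the segment, had 406 reads in replicate 1 and 354 in replicate 2, and Scg2-201, with it, had 346 and 371. Scg2-202 thus made up 54.0% of the annotated reads in replicate 1 (95% Wilson interval 50.4 to 57.5) and 48.8% in replicate 2 (45.2 to 52.5), a mean of 51.4% ± 3.65 (SD, n = 2). The intervals overlapped, and the order of the transcripts was opposite in the libraries. Over all complete and new-splice reads of the gene Scg2-202 held 53.1% and 47.8%, a difference of 5.23 points with p = 0.0444 in Fisher's exact test and an adjusted p of 0.643 over 2440 genes, so it was not called. With incomplete and genomic models included, 423 reads lacked and 388 kept the segment in replicate 1, against 370 and 375 in replicate 2. That count took in a genomic model of 40 reads in replicate 1 that covers the segment, while the corresponding model of 57 reads in replicate 2 starts past it.

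Leading shares as low as this were uncommon. The leading model, annotated or new, held under 60% in both libraries in 268 of 2440 genes (10.98%), and the median leading share was 92.3% and 91.0%. The other granins in this comparison were near or above that median, while Vgf and Scg3 had too few reads to enter it. Chga-201 held 95.1% and 96.0% of complete and new-splice reads, Chgb-201 98.6% and 98.9%, Pcsk1n-201 99.4% and 100%, and Scg5-201 91.7% and 92.6%. None of the 5 members tested differed in isoform usage between the libraries (0 called, against 0.41% of genes, and 0 on the adjusted p alone, against 0.574%), and Scg2 alone had an unadjusted p under 0.05.

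**Figure D4:**
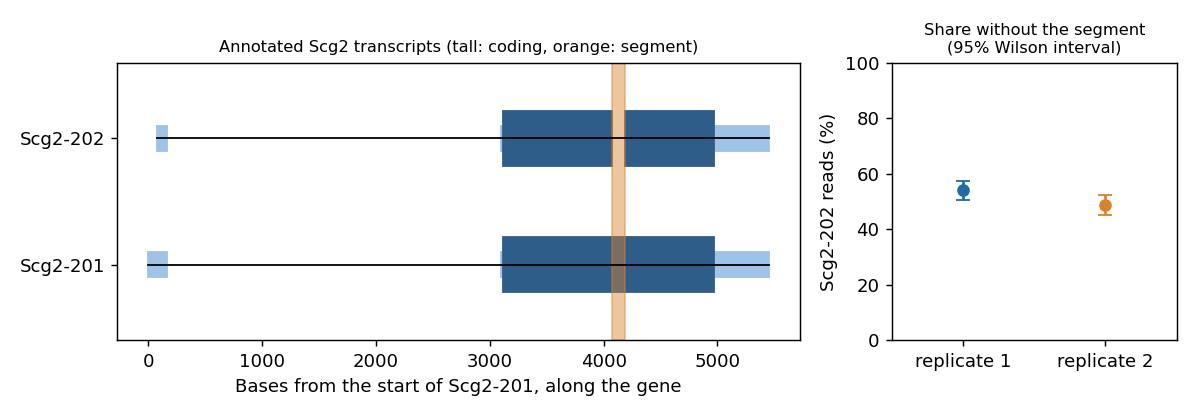
Left, the annotated Scg2 transcripts along the gene in bases from the start of Scg2-201, with coding parts tall and the 120-base segment in orange. Right, the percentage of annotated Scg2 reads without the segment in each library with 95% Wilson intervals, 54.0% in replicate 1 and 48.8% in replicate 2.

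Of the 7 annotated Scg3 transcripts (minus strand, chr9:75643189-75684056), 2 had reads. Scg3-202 had 4 reads in replicate 1 and 6 in replicate 2, and Scg3-201 had 5 and 1. Scg3-201 codes for 471 codons and Scg3-202 for 466, owing to a shifted acceptor of intron 9, and the counts are too few to order them. Of the 4 annotated Vgf transcripts (plus strand, chr5:137026392-137033351), Vgf-201 had 21 and 7 reads and Vgf-203 had 1 and 0. A single-exon incomplete model added 7 Vgf reads in replicate 2. Of 3 annotated Chga transcripts and 2 annotated Scg5 transcripts, Chga-201 and Scg5-201 took all annotated reads.

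Chga (plus strand, chr12:102554969-102565028) has 8 exons, and Chga-201 codes for 463 codons over 1883 bases. Its reads were most complete at the 3′ end. Intron 7, the last, was carried at its annotated sites by 92.7% of Chga reads in replicate 1 and 88.5% in replicate 2, and intron 1 by 86.6% and 78.9%. Reads with a shifted site, and reads of models that begin past an intron, count here as lacking it, so these shares are not splicing rates. Genomic models came next, with 217 and 298 reads, nearly all in a single-exon model that begins in exon 7 and runs through intron 7 to the annotated end. Incomplete models with the last 2 exons held 98 and 136 reads, and those with the last 3 exons held 38 and 52. Among models classed as new combinations, one of 1836 bases that skips an exon had 8 and 4 reads, and another of 1814 bases had 5 and 4. Donor sites a few bases downstream of the annotated ones gave models of 1887 bases, with 11 and 13 reads at intron 5 and 8 and 7 reads at intron 7.

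A cluster of new acceptor sites lay inside exon 5 of Chga (chr12:102561345-102561503), a coding exon of 159 bases whose CAG triplets number 22. The exon is shown with the 3 bases just before each shifted acceptor that had at least 5 reads in capitals.

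Chga exon 5: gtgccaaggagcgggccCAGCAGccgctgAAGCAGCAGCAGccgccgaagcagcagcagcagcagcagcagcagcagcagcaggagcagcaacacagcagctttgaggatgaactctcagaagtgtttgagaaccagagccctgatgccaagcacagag

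Reads that entered the exon at one of 9 such acceptors numbered 58 of 2945 in replicate 1 (1.97%, 95% Wilson interval 1.53 to 2.54) and 28 of 2252 in replicate 2 (1.24%, 0.862 to 1.79). Of the 6 acceptors with at least 5 reads over both libraries, 5 followed a CAG and 1 followed an AAG. Such letters usually end an intron, but the exon is rich in CAG, so they do not show that the sites are true acceptors. Whether the reads were placed wrongly within the repeat was not tested. The acceptor that skips 35 bases had 20 and 9 reads, that of 23 bases 13 and 7, and that of 41 bases 11 and 7. The remaining 3 skip 20 bases (5 and 1 reads), 32 bases (4 and 1 reads) and 38 bases (2 and 3 reads). None of the 9 kept the reading frame, but all shift it in the same way, so these are not 9 separate observations. The most abundant new-splice-site model of the gene, with 19 and 8 reads, used the acceptor at 35 bases.

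Chgb (plus strand, chr2:132781278-132795079) has 5 exons and codes for 677 codons. Its incomplete reads were nearly all of 1 kind: a model with the last 2 exons held 593 reads in replicate 1 and 563 in replicate 2. The model begins at the first base of exon 4, the large coding exon, and is 2094 bases long beside 2740 for Chgb-201. Accordingly the annotated intron 4 was carried by 99.5% and 99.2% of Chgb reads, and intron 3, just before that exon, by 77.1% and 75.8%. No neighbouring introns of Chga were as far apart. The start at the first base of exon 4 is that of the model, and it is the same base in both libraries. Where its reads began is not recorded, so neither this start nor the step between introns shows a common 5′ end. The next incomplete model had 6 and 11 reads, a model of 2733 bases with a shifted acceptor of intron 1 had 9 and 2, and a genomic model had 0 and 9. New-splice-site models were few, the leading ones having 3 reads in each library.

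**Figure D5:**
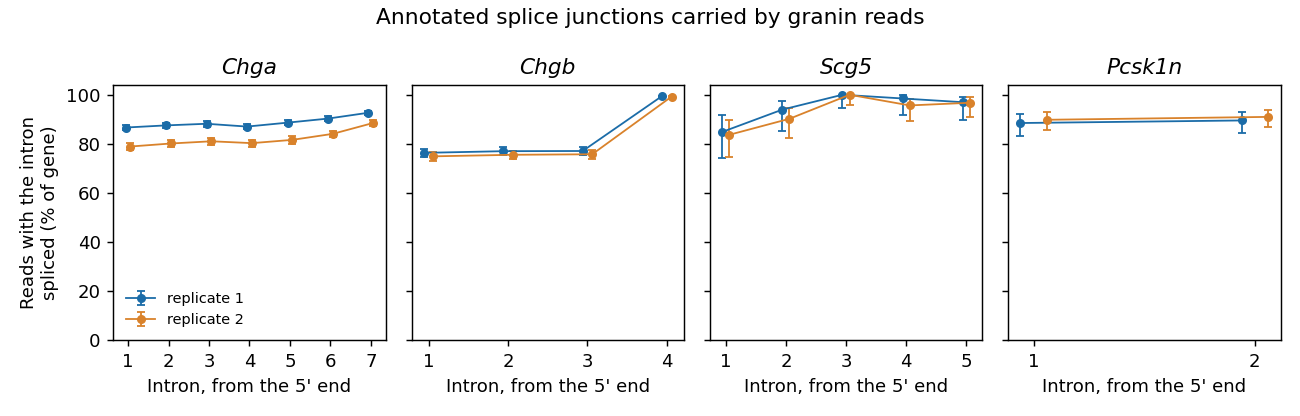
Percentage of the reads of Chga, Chgb, Scg5 and Pcsk1n that carry each annotated intron spliced, numbered from the 5′ end, with 95% Wilson intervals (replicate 1 and replicate 2 side by side). Chgb shows a step between intron 4 (99.5% and 99.2%) and intron 3 (77.1% and 75.8%), while Chga changes gradually.

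Scg5 (minus strand, chr2:113776362-113829121) carried intron 3 in all 66 and 92 reads and intron 1 in 84.8% and 83.7%, and its intron 2 spans 35309 bases. Its leading incomplete model, with the last 4 exons, had 3 and 9 reads. For Scg2, the annotated intron 1 was carried by 93.0% and 91.2% of reads.

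The ends in these files are those of models, not of reads. Annotated models carry annotated ends, and other models mostly do too: 99.8% and 99.7% of the non-annotated Chga reads, 100% and 99.7% of those of Chgb and 100% of those of Scg2 in each library came from models whose 3′ end was the annotated base itself, so these values do not show where the reads ended. For Scg5, with 11 and 17 such reads, the models with the annotated 3′ end held 90.9% and 82.4%. Pcsk1n (plus strand, chrX:7919822-7924410) had none there. The models of all 23 of its non-annotated reads in replicate 1 ended 1176 bases before the annotated end, and those of all 26 in replicate 2 ended 1179 bases before it. An AATAAA, the usual polyadenylation signal, starts 19 bases before the first of these ends and 16 bases before the other. Up to there the transcript would measure 1017 and 1014 bases, against 2193 bases for Pcsk1n-201. The single-exon incomplete model ending there had 19 and 23 reads and a 2-exon one had 2 and 3. Whether the 168 and 229 reads of the annotated model end at the same place is not recorded in these files. With the shorter length Pcsk1n kept its place in the per-kilobase order of the family.

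Promoters from 250 bases before to 50 bases after the RefSeq start (GRCm38.p6) were available for 6 of the 7 genes. The cyclic AMP response element TGACGTCA, a palindrome, was found in 2 of 6, Scg2 and Chgb, beside 1.79% of 32851 promoters. Its first 6 letters, TGACGT, searched on both strands and overlapping the full element, were found in 4 of 6 (also Chga and Scg5), beside 7.51%. GGGCGG was found in 4 of 6, beside 35.7%, TATAAA in Chga alone, beside 13.6%, and TGACTCA in Pcsk1n alone, beside 5.20%. The TATAAA of Chga starts 5 bases after the RefSeq start, not before it. The GENCODE start of Chga lies 28 bases downstream of the RefSeq start. The windows below show 30 bases round the element in Scg2 and Chgb, and round the 6-letter match, which is not the full element, in Chga, with the matched letters in capitals.

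Scg2 promoter: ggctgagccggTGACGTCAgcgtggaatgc
Chgb promoter: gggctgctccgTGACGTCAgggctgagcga
Chga promoter: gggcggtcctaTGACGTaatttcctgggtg

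The element starts 68 bases before the RefSeq start in Scg2 and 72 in Chgb, and the 6-letter match in Chga starts 44 bases before it. Start sites differ between annotations, since the GENCODE start lies 94 bases farther upstream for Scg2 and 364 for Chgb, so that in Scg2 and Chgb the element falls inside the longest GENCODE transcript. These matches describe letters in a window, and binding was not measured here.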

How the data were processed

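Long reads of 2 adrenal libraries had been assigned to transcript models, and the authors deposited raw read counts per model with 1 annotation per library, on mm10 with GENCODE M21 per the file headers. The aligner is not given in the sources used here. Counts were summed per gene over all models, with spike-ins left out, and expressed as CPM of mouse reads. No column of another sample was present. Known models, and most others, carry annotated ends. Gene and isoform differences were tested with two-sided Fisher's exact tests and Benjamini-Hochberg adjustment over every gene with 20 or more reads in total (isoforms: at least 50 complete or new-splice reads in each library, called at adjusted p under 0.05 and at least 10 points), using SciPy 1.17.1. Wilson intervals are at 95% and cover counting error only. Reads carry no stated molecular identifiers. TMM factors came from edgeR 4.0.16 and size factors from DESeq2 1.42.0 under R 4.3.3, as alternatives. The members and gene lists were chosen with earlier results of these data known. Named list genes are the 4 highest by mean CPM of each list and any called, except that some are not reported here; named models are those annotated with reads and the 2 most abundant of each other class with at least 5 reads. Genes next in level, those passing the adjusted p alone, the convertases, the Chga acceptors and 1 alternative (Pcsk1n length) were chosen after seeing values. Whether reads were assigned to strands by the kit is not stated, and protein sequences were not used here.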

Additional observations from a re-analysis of the deposited data

Results flagged for a closer look

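Chga had 5 reads in replicate 1 and 5 in replicate 2 from a model on the opposite strand within the gene, a single-exon model in each library. These reads lie outside the sense counts and above the 3 reads that a count of 0 allows. None of them carried an intron of Chga. Chgb had 1 such read in replicate 1 and 0 in replicate 2, and the other members had none. How the opposite-strand reads arose was not tested.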

How the results depend on the processing

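The family sum stayed within its SD of the mean under every total and model filter run. It ranged from 8785 CPM with spike-ins in the total to 10129 CPM without single-exon models. The order of the 7 genes was the same in each of these and in each library alone. The Scg2-202 share was 51.4% of annotated reads, and 50.9% lacked the segment with incomplete and genomic models included. Leaving out a library gives the value of the other (7800 or 10258 CPM, 48.8% or 54.0%). With 2 libraries that value always lies within the SD of the mean, so it is no check. Counted from annotated models alone, the means of Scg2 (1374 CPM), Pcsk1n (366 CPM) and Scg5 (119.9 CPM) moved by more than their SD. Excluding genomic models raised the annotated share of granin reads to 83.7%, against 79.7% with them, as their removal from the denominator requires. Members called between libraries numbered 0, but 1 (Vgf) with annotated models alone and 3 on adjusted p alone; the cause of the Vgf change was not tested. All genes called were 267, falling to 161 at a minimum of 50 reads, where fewer genes were tested, and 656 on adjusted p alone. In isoform usage 10 genes were called, 4 at a minimum of 100 reads, 1 with annotated models alone and 72 with incomplete models included, and 0 granins under any of these. With incomplete models included Chga-201 differed by 3.66 points with an adjusted p of 0.00314 (Fisher's exact test), past the p but below the 10 points required. Depth limits Vgf and Scg3 most. No paired analysis was possible because the series holds 1 group.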
